A study of Mus musculus with 12 samples.

Results

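The caput, the head of the mouse epididymis, was compared between 13 and 2 months of age by small RNA sequencing, separately in wild-type (WT) mice and in mice without Gpx5 (KO). The libraries were chosen by tissue and age: 4 of the 12 samples of the study, which holds 10 small RNA libraries in all. There was 1 library for each age and genotype: WT caput at 13 months, KO caput at 13 months, WT caput at 2 months and KO caput at 2 months. All mice were C57BL/6, and the KO mice lack Gpx5, which encodes a glutathione peroxidase that the epididymal epithelium secretes. The protocol describes RNA pooled over animals before sequencing and names 7 WT and 7 KO mice of 13 months. For 2 months neither the pooling nor a number of mice is stated. Caput tissue had been punctured so that spermatozoa could leave it before RNA was extracted. Against the label, all 7 listed epithelial miRNAs had reads in every library, and miR-10a and miR-10b, which lie in Hox clusters, were the 2 most abundant miRNAs in each.

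The caput is the part of the duct that spermatozoa enter after leaving the testis. Its epithelium secretes proteins and vesicles into the lumen, and the small RNAs of these vesicles are known to be passed to spermatozoa. miRNAs are cut from hairpin precursors and bind target mRNAs mainly through the seed, bases 2 to 8 from the 5′ end. tRNA fragments arise when mature tRNAs are cut, often in the anticodon loop, and the 5′ fragments of tRNA-Gly, tRNA-Glu and tRNA-Val are abundant in epididymis and sperm. piRNAs are germ-cell small RNAs that usually begin with uridine and protect the germ line from transposons.

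The comparison has no replicate within a group. Each 13-month library was set against the 2-month library of its own genotype, and a direction is reported where WT and KO shared it. Intervals are 95% exact intervals that cover counting error only, not the spread between animals, and reads without molecular identifiers are not independent molecules. The files gave 13825045 reads of 18 to 38 nt in WT and 18362642 in KO at 13 months, against 3830474 in WT and 7636196 in KO at 2 months. They were not built alike: the longest read was 38 nt at 13 months and 47 nt at 2 months, and 639930 and 202367 sequences were listed at 13 months in WT and KO, against 17537 and 23330 at 2 months. Of the 100 most abundant sequences by the files' own ranks, 10 and 9 had no line in the WT and KO files at 13 months, against 2 and 5 at 2 months, and a sequence without a line could have up to 62408 and 88283 reads at 13 months, against 1573 and 2615 at 2 months. Up to the last rank listed, ranks without a line held between 4458671 and 4482375 reads in WT and between 789854 and 824442 in KO at 13 months. At 2 months they held between 41607 and 42132 in WT and between 63075 and 63612 in KO. All shares below are of listed reads, so they miss unequal parts of the libraries, also between WT and KO at 13 months. Age therefore cannot be told apart from the way each pair of libraries and files was made. In this bulk tissue, fewer cells of a type and less RNA per cell cannot be told apart either.

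The results turn on a few miRNAs, whose mature sequences are shown with the seed in capitals (RefSeq, GRCm38.p6). miR-10a-5p (chr11:96317186-96317208, plus strand) and miR-10b-5p (chr2:74726074-74726096, plus strand) dominate the libraries and share a seed. miR-99b-5p (chr17:17830194-17830215, plus strand), miR-26a-5p (chr9:119031811-119031832 and chr10:126995543-126995564), miR-182-5p (chr6:30165962-30165986, minus strand) and miR-21a-5p (chr11:86584120-86584141, minus strand) were lower by name at 13 months. let-7c-5p (chr15:85706616-85706637 and chr16:77599672-77599693), miR-148a-3p (chr6:51269829-51269850, minus strand) and miR-29a-3p (chr6:31062673-31062694, minus strand) are examples that were higher.
miR-10a-5p: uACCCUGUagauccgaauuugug
miR-10b-5p: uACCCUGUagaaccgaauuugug
miR-99b-5p: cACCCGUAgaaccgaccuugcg
miR-26a-5p: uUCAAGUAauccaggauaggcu
miR-182-5p: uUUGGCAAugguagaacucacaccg
miR-21a-5p: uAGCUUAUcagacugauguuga
let-7c-5p: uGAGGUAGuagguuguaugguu
miR-148a-3p: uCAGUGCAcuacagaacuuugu
miR-29a-3p: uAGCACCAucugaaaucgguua

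For miR-26a-5p and miR-99b-5p the most abundant read in the deposited files differed between the ages by 1 base at the 5′ end, which is capitalised here. The reads are shown as DNA.
miR-26a-5p, 13 months: Tttcaagtaatccaggataggct
miR-26a-5p, 2 months: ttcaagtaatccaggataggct
miR-99b-5p, 13 months: Ccacccgtagaaccgaccttgcg
miR-99b-5p, 2 months: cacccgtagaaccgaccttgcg

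Among tRNA fragments, the 5′ ends of tRNA-Gly and tRNA-Val carried most reads. The tRNA-Gly forms below are 18, 30 and 32 nt long, with the bases beyond the 30-nt form in capitals, and the tRNA-Val form is 33 nt long. The amino acids were assigned from the known 5′ ends of mouse tRNAs, since the files name only the tRNA family.
tRNA-Gly, 18 nt: gcattggtggttcagtgg
tRNA-Gly, 30 nt: gcattggtggttcagtggtagaattctcgc
tRNA-Gly, 32 nt: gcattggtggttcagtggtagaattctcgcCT
tRNA-Val, 33 nt: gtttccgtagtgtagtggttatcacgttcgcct

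Caput at 13 months held a smaller share of miRNA reads and a larger share of every other class than caput at 2 months, in both genotypes. miRNAs made up 55.2% of classified reads in WT and 77.4% in KO at 13 months, against 98.5% in WT and 98.6% in KO at 2 months. tRNA reads made up 21.5% and 19.5% in WT and KO at 13 months, against 1.01% and 1.00% at 2 months, so that their share was 21.3-fold higher in WT and 19.4-fold higher in KO. The tRNA increase had nearly the same size in both genotypes, with log2 ratios of 4.42 in WT and 4.28 in KO.

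The other classes differed in the same direction with unequal sizes. rRNA reads were 1.18% in WT and 0.656% in KO at 13 months, against 0.146% and 0.122% at 2 months (log2 ratios of 3.01 in WT and 2.43 in KO). snoRNA reads were 0.641% and 0.490% in WT and KO at 13 months, against 0.0861% and 0.0622% at 2 months (log2 ratios of 2.90 and 2.98 in WT and KO). Small nuclear RNAs, the RNA parts of the splicing machinery, made up 0.175% and 0.135% in WT and KO at 13 months, against 0.0121% and 0.0231% at 2 months. In each of these classes both 13-month shares lay above both 2-month shares. mRNA fragments took 3.45% of WT and 0.844% of KO reads at 13 months, against 0.0859% and 0.0992% at 2 months. Mitochondrial RNA took 0.257% and 0.0818% of WT and KO reads at 13 months, against 0.0131% and 0.0151% at 2 months. In these last 2 classes the WT library at 13 months stood above the KO library at 13 months, while the 2-month libraries were close to each other. A sequence was not always matched to the same entry in every library, so these gaps between WT and KO depend in part on the match. A 20-nt sequence with 8940 rRNA-class reads in KO at 13 months was matched to a mitochondrial entry in another library. A 19-nt sequence with 8927 mRNA-class reads in KO at 13 months was matched to an rRNA entry in another library.

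**Figure D1:**
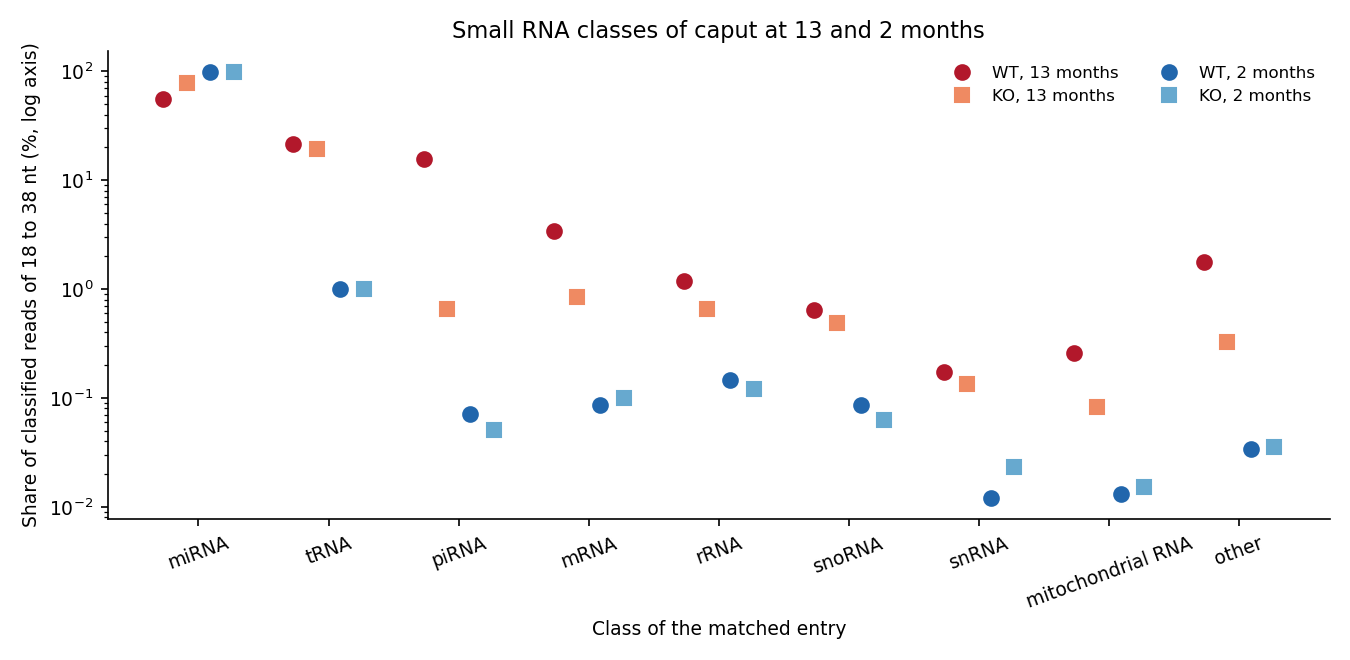
Share of classified reads of 18 to 38 nt (log axis, %) by class of the matched entry in each of the 4 caput libraries (1 point per library, no replicate). Both 13-month libraries lie above both 2-month libraries in 8 classes, and below them only for miRNA, where the shares were 55.2% and 77.4% at 13 months.

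The lengths of the reads moved with the classes. Reads of 22 nt, the main miRNA length, were 29.2% of WT and 44.1% of KO reads at 13 months, against 75.9% of WT and 74.5% of KO reads at 2 months. Reads of 18 and 19 nt were 9.06% and 7.47% in WT and KO at 13 months, against 0.252% and 0.319% at 2 months. Reads longer than 38 nt were found only at 2 months, with 25002 in WT and 37618 in KO, and are left out of every value except where stated. Of these, 21369 in WT and 31862 in KO matched SNORD58, a C/D box snoRNA, and with reads of every length the snoRNA class no longer differed in that direction (log2 ratios of -0.065 in WT and -0.031 in KO). Within 18 to 38 nt, SNORD58 reads were 185 and 67.6 per 1000000 classified reads (RPM of classified reads) in WT and KO at 13 months, against 39.9 and 38.9 at 2 months.

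**Figure D2:**
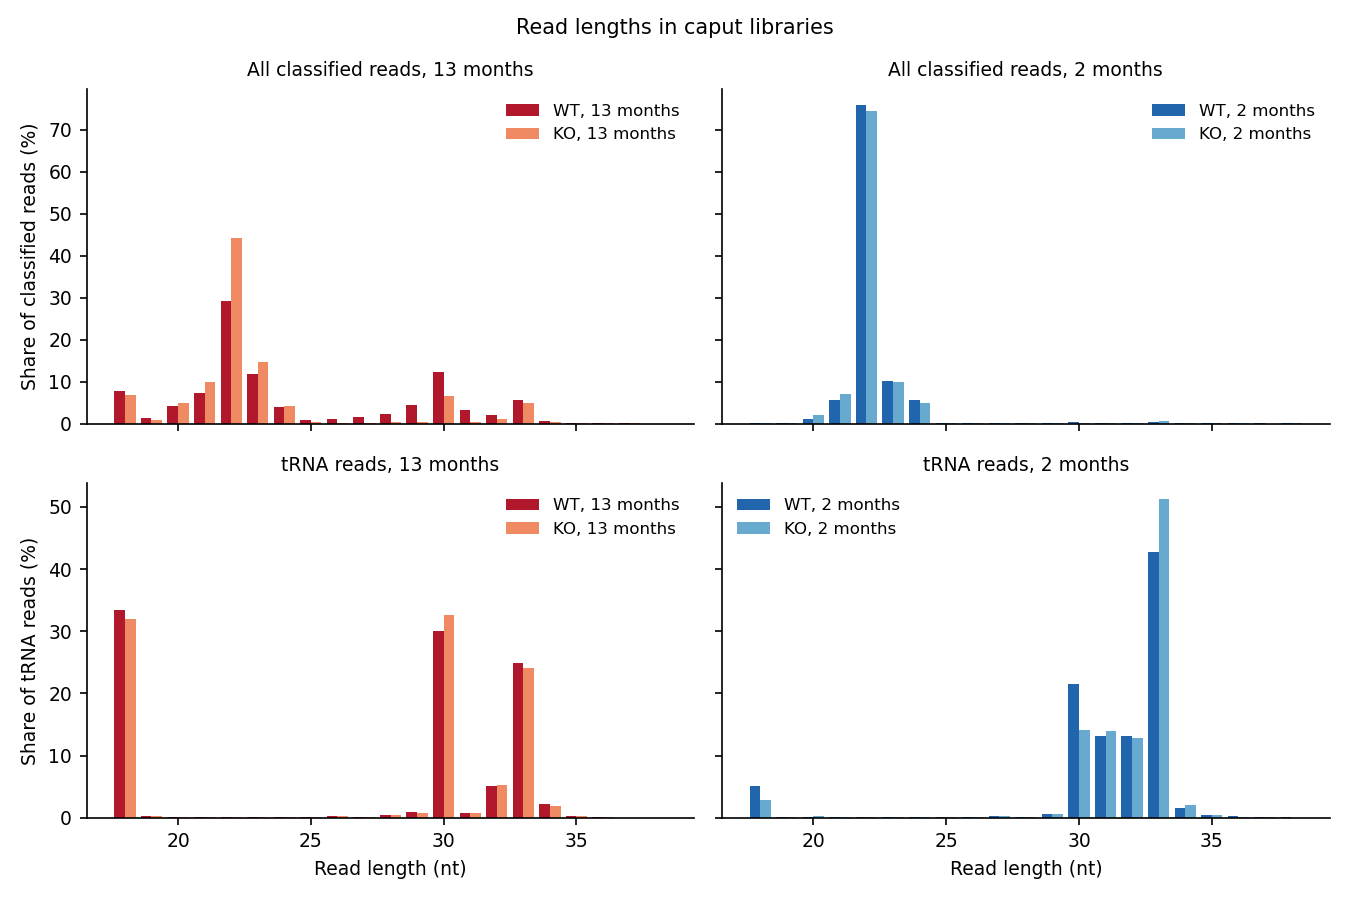
Read lengths (nt) as shares of all classified reads (top, %) and of tRNA reads (bottom, %), with 13 months on the left and 2 months on the right, 1 bar per library. The 22-nt peak held 29.2% and 44.1% of WT and KO reads at 13 months, against 75.9% and 74.5% at 2 months, and the tRNA reads of 18 nt stand out at 13 months.

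Nearly all tRNA reads came from 5′ ends, at both ages. They were 96.8% and 96.7% of tRNA reads in WT and KO at 13 months, against 97.3% and 96.9% at 2 months. The length of the fragments differed more. Fragments of 18 to 19 nt took 7.25% of WT and 6.28% of KO classified reads at 13 months, against 0.0534% of WT and 0.0300% of KO reads at 2 months (log2 ratios of 7.08 in WT and 7.71 in KO). Fragments of 30 to 34 nt, which end near the anticodon, took 13.6% and 12.6% in WT and KO at 13 months, against 0.929% and 0.942% at 2 months (log2 ratios of 3.87 and 3.74 in WT and KO). Fragments of 20 to 29 nt were the rarest at both ages, at 0.636% and 0.481% in WT and KO at 13 months, against 0.0178% and 0.0215% at 2 months. Their log2 ratios of 5.16 in WT and 4.48 in KO lay between those of the shorter and the longer fragments. The short fragments thus had a larger ratio than the long ones in both genotypes.

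By amino acid, 7 of 9 groups of 5′ fragments were higher at 13 months in both genotypes. tRNA-Gly fragments were 13.8% of WT and 12.7% of KO classified reads at 13 months, against 0.493% of WT and 0.400% of KO reads at 2 months (log2 ratios of 4.80 and 4.98). tRNA-Val fragments were 6.39% and 5.54% in WT and KO at 13 months, against 0.460% and 0.545% at 2 months (log2 ratios of 3.80 and 3.35). The balance between these groups shifted: tRNA-Gly made up 66.0% of WT and 67.3% of KO 5′ reads at 13 months, against 50.3% of WT and 41.2% of KO 5′ reads at 2 months, while tRNA-Val made up 30.6% and 29.5% in WT and KO at 13 months, against 46.9% and 56.2% at 2 months. tRNA-Lys fragments were 0.382% and 0.340% in WT and KO at 13 months, against 0.00632% and 0.00839% at 2 months. tRNA-His fragments were 0.139% and 0.135% in WT and KO at 13 months, against 0.00488% and 0.00388% at 2 months. tRNA-Gln, tRNA-Ala and tRNA-Cys fragments were also higher, but tRNA-Cys in KO was lower when reads with a mismatch were left out (log2 ratio of -1.10). tRNA-Glu did not share a direction (log2 ratios of 1.16 in WT and -0.26 in KO). Without reads that hold a mismatch its KO log2 ratio turned to 0.77. For tRNA-Asp both intervals held a ratio of 1 (log2 ratios of 0.72 in WT and -0.15 in KO). Outside tRNA-Gly and tRNA-Val, every group had fewer reads than a single sequence without a line could hold in the same file. tRNA-Glu had 4774 and 1827 reads in WT and KO at 13 months, against 591 and 911 at 2 months. Its direction is therefore uncertain.

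Single tRNA-Gly fragments showed where the reads lay. The 18-nt fragment printed above had 849519 reads in WT and 985429 in KO at 13 months, against 1116 in WT and 1437 in KO at 2 months. The 30-nt fragment had 764045 and 1003956 reads in WT and KO at 13 months, against 4944 and 7568 at 2 months. At 13 months the 18-nt form was thus about as frequent as the 30-nt form, and at 2 months it was the rarer of the pair. The 32-nt form had 2130 reads in WT and 4947 in KO at 2 months, which was 43.1% and 65.4% of the 30-nt form. It had no line in either 13-month file, where the ranks without a line allow at most 8.17% of the 30-nt form in WT and 8.79% in KO. For tRNA-Val the 33-nt form was the most frequent at each age, with 646210 and 758069 reads in WT and KO at 13 months, against 11986 and 34477 at 2 months. Its neighbour of 32 nt had 104162 and 121675 reads in WT and KO at 13 months, against 629 and 1460 at 2 months.

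**Figure D3:**
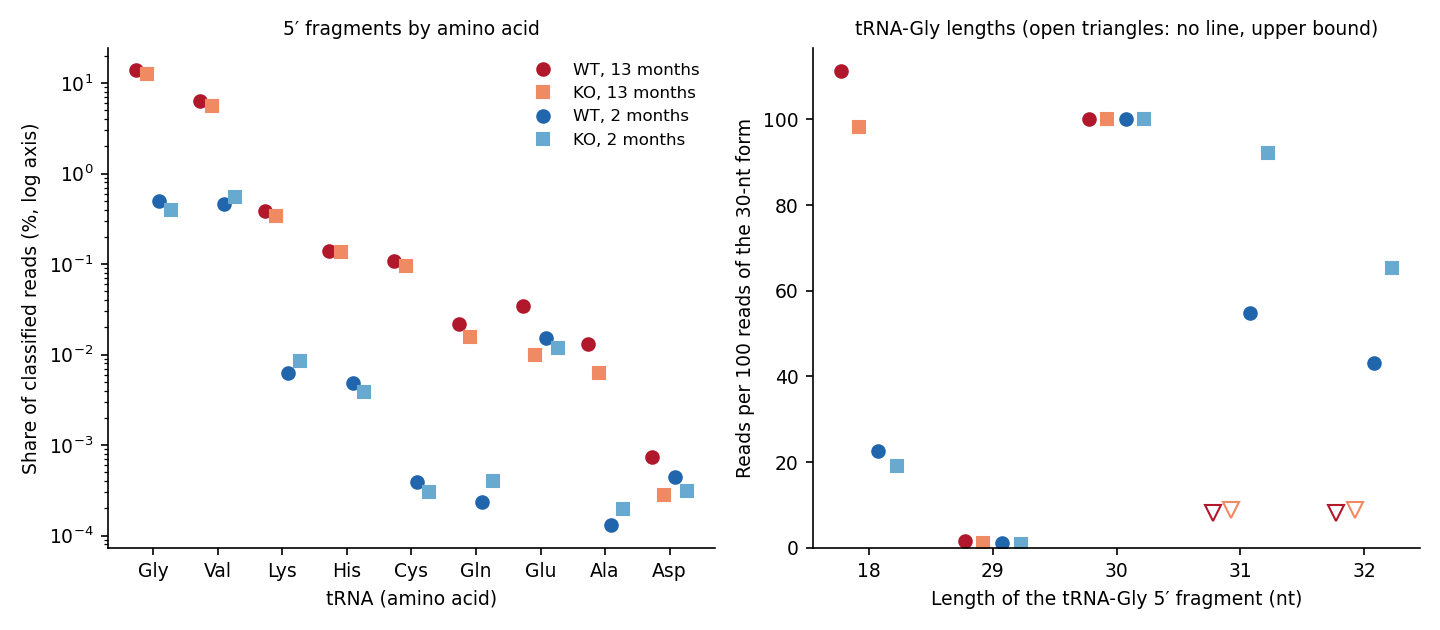
Left, share of classified reads (%, log axis) of 5′ fragments by tRNA amino acid in each library. Right, tRNA-Gly fragments of each length as reads per 100 reads of the 30-nt form, where open triangles give the upper bound for a length that has no line; the 32-nt form stood at 43.1% and 65.4% in WT and KO at 2 months, and at 13 months could be at most 8.17% and 8.79%.

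piRNA-class reads were higher at 13 months in both genotypes, and far more so in WT. They numbered 2180932 in WT and 120233 in KO at 13 months, against 2709 in WT and 3870 in KO at 2 months, or 15.8% and 0.655% of classified reads in WT and KO at 13 months, against 0.0707% and 0.0507% at 2 months (log2 ratios of 7.80 in WT and 3.69 in KO). The reads also had different features. In WT, 95.2% at 13 months were 24 to 32 nt long, against 91.0% at 2 months, and 87.6% at 13 months began with T, against 74.9% at 2 months. In KO, 71.4% at 13 months were 24 to 32 nt long, against 81.9% at 2 months, and 44.4% at 13 months began with T, against 62.4% at 2 months. The share that began with T was thus higher at 13 months in WT and lower at 13 months in KO. In the testis libraries of the same study, which come from mice of 13 months, 88.6% of WT and 86.4% of KO piRNA reads began with T and 96.1% and 96.5% were 24 to 32 nt long.

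Reads with both piRNA features, 24 to 32 nt and a T at the first base, made up 13.5% of WT and 0.271% of KO classified reads at 13 months, against 0.0507% of WT and 0.0292% of KO reads at 2 months (log2 ratios of 8.06 in WT and 3.21 in KO). The remaining piRNA-class reads made up 2.27% and 0.384% in WT and KO at 13 months, against 0.0200% and 0.0215% at 2 months (log2 ratios of 6.83 and 4.16 in WT and KO). Both parts were higher at 13 months in each genotype. A single entry, piR-22206, held 1.24% of WT and 26.1% of KO piRNA reads at 13 months, against 32.3% of WT and 31.99% of KO piRNA reads at 2 months. Of miRNAs listed for germ cells and sperm, 26 were found and 1 reached the level to be tested. Their sum was 20440 reads per 1000000 miRNA reads (RPM) in WT and 790 RPM in KO at 13 months, against 76.2 RPM in WT and 76.3 RPM in KO at 2 months, but under TMM scaling the KO log2 ratio of the sum was -0.011. All 26 had reads in WT and 25 in KO at 13 months, against 15 in WT and 17 in KO at 2 months, while over all miRNA names 758 and 717 had reads in WT and KO at 13 months, against 305 and 380 at 2 months. miR-470-5p ran the other way in KO, with 0.263 RPM at 13 months against 6.88 RPM at 2 months. miR-880-3p, miR-742-3p and miR-471-5p, of the X-linked testis cluster, had no reads at 2 months in either genotype. The part of germ cells in the piRNA difference was not tested.

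Among matched entries outside the miRNA and tRNA classes, 222 reached 10 RPM of classified reads in a library of each pair. Of these, 204 (91.9%) were at least 2-fold higher at 13 months in both genotypes, with intervals that excluded a ratio of 1, and 1 (0.45%) was lower. The median log2 ratio over the 222 entries was 4.25 in WT and 3.87 in KO. An entry could pass by its 13-month level alone, as U1 and SNORD30 did, with under 10 RPM in both 2-month libraries. Such a filter favours higher calls and raises these shares. Under this filter, 60 of 62 snoRNA entries, 11 of 12 rRNA entries and all 7 snRNA entries were higher. The same held for 38 of 39 piRNA entries, 12 of 14 mitochondrial entries and 47 of 56 mRNA entries. The lower entry, picked out after its values were seen, was an mRNA whose identifier belongs to Lrrc4c, with 0 and 1 reads in WT and KO at 13 months, against 277 and 277 at 2 months.

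Entries with a known role followed this. 5S rRNA, a component of the large ribosomal subunit, had 1952 and 1666 RPM of classified reads in WT and KO at 13 months, against 387 and 417 at 2 months (log2 ratios of 2.33 and 2.00 in WT and KO). SNORD52, which guides methylation of rRNA, had 567 and 553 RPM in WT and KO at 13 months, against 43.9 and 36.7 at 2 months (log2 ratios of 3.69 and 3.91). Y RNA, which binds the Ro protein, had 338 and 342 RPM in WT and KO at 13 months, against 43.6 and 53.95 at 2 months (log2 ratios of 2.96 and 2.66). In these 3 entries WT and KO were close to each other at both ages. U1, which recognises the 5′ splice site, had 278 RPM in WT and 100 in KO at 13 months, against 2.35 and 2.23 at 2 months. The signal recognition particle RNA had 1003 RPM in WT and 126 in KO at 13 months, against 15.7 and 19.5 at 2 months. The 7SK RNA, which holds the elongation factor P-TEFb, had 312 RPM in WT and 71.1 in KO at 13 months, against 6.53 and 6.55 at 2 months. For these last 3 the WT library at 13 months was the highest of the 4. A fragment ran the other way: a 24-nt sequence of 5S rRNA had 2.24 and 2.18 RPM in WT and KO at 13 months, against 134 and 153 at 2 months (log2 ratios of -5.91 and -6.14).

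The miRNA pool itself was less dominated by miR-10a-5p and miR-10b-5p at 13 months. All miRNA levels from here on are RPM with mature-named miRNA reads as the base, of which there were 5953443 in WT and 11428537 in KO at 13 months, against 3242204 and 6541340 at 2 months. miR-10b-5p had 38.9% of miRNA reads in WT and 46.4% in KO at 13 months, against 65.2% in WT and 56.3% in KO at 2 months. miR-10a-5p had 22.2% and 24.2% in WT and KO at 13 months, against 31.1% and 37.7% at 2 months. Neither was 2-fold different. All other miRNAs together took 38.9% and 29.5% in WT and KO at 13 months, against 3.75% and 6.02% at 2 months, a log2 ratio of 3.37 in WT and 2.29 in KO. The number of miRNAs with at least 100 RPM was 128 in WT and 92 in KO at 13 months, against 33 in WT and 38 in KO at 2 months.

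With this base, most miRNAs were higher at 13 months. Tested were the 98 miRNAs that reached 100 RPM in either library of each pair. Of these, 86 (87.8%) were at least 2-fold higher in both genotypes and 6 (6.12%) were lower. The median log2 ratios over the 98 were 4.52 in WT and 3.49 in KO. Only 33 miRNAs in WT and 38 in KO reached 100 RPM at 2 months, against 128 and 92 at 13 months. Most tested miRNAs therefore passed through a 13-month library, which favours higher calls and raises these shares and medians. Since RPM values sum to a fixed total, a lower share of miR-10 raises every other share. Without miR-10a-5p and miR-10b-5p in the base, 146 miRNAs were tested, 69 (47.3%) were higher and 13 (8.9%) were lower, with median log2 ratios of 1.24 in WT and 1.18 in KO. Trimmed-mean (TMM) scaling, which assumes that most miRNAs do not change, subtracts 4.68 in WT and 3.38 in KO from every log2 ratio and left 3 of 70 higher (4.29%) and 26 lower (37.1%), and median-of-ratios scaling left 3 higher (4.29%) and 25 lower (35.7%). Within a genotype the order of the miRNAs is the same under each of these bases, but the number called higher or lower is not, so the ratios below are to be read against those medians. The log2 ratios of the 98 miRNAs in WT and in KO had a Pearson's r of 0.93 and a Spearman's rho of 0.85 across miRNAs, which are not independent replicates.

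Among miRNAs with at least 1000 RPM in any of the 4 libraries, those with the largest shared increase were spread over several families. miR-425-5p had 1104 and 609 RPM in WT and KO at 13 months, against 9.87 and 21.1 RPM at 2 months (log2 ratios of 6.81 and 4.85). miR-29a-3p, of a family that targets collagen mRNAs, had 2466 and 1783 RPM in WT and KO at 13 months, against 37.6 and 82.2 RPM at 2 months (log2 ratios of 6.03 and 4.44). miR-103-3p and miR-107-3p, which were counted together since they share reads, had 1771 and 1104 RPM in WT and KO at 13 months, against 49.7 and 46.6 RPM at 2 months (log2 ratios of 5.16 and 4.57). Each 13-month value was more than 10 times its 2-month counterpart. let-7c-5p, of the family that restrains proliferation, had 17113 and 9745 RPM in WT and KO at 13 months, against 387 and 522 RPM at 2 months (log2 ratios of 5.47 and 4.22). miR-126a-5p, from an endothelial gene, had 3387 and 4130 RPM in WT and KO at 13 months, against 66.0 and 236 RPM at 2 months (log2 ratios of 5.68 and 4.13). miR-148a-3p, the most abundant of these, had 43280 and 41605 RPM in WT and KO at 13 months, against 2103 and 2469 RPM at 2 months (log2 ratios of 4.36 and 4.07). The order of WT and KO differed among them: let-7c-5p was higher in WT at 13 months, and miR-126a-5p in KO at 13 months. miR-145a-5p, let-7e-5p, let-7b-5p and miR-25-3p complete the 10 largest at that level, with log2 ratios between 5.30 and 5.80 in WT and between 4.001 and 4.31 in KO.

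The abundant miRNAs below miR-10 had smaller ratios, and their direction depends on the base. miR-143-3p, of smooth muscle and stroma, had 73089 and 71352 RPM in WT and KO at 13 months, against 10034 and 18898 RPM at 2 months (log2 ratios of 2.86 and 1.92). miR-191-5p had 51192 and 37732 RPM in WT and KO at 13 months, against 7504 and 9082 RPM at 2 months (log2 ratios of 2.77 and 2.05). miR-141-3p, of the epithelial miR-200 family, had 15831 and 21044 RPM in WT and KO at 13 months, against 2930 and 5930 RPM at 2 months (log2 ratios of 2.43 and 1.83). All 3 were called higher with all miRNA reads as the base, yet the mean of their WT and KO log2 ratios was -1.64, -1.62 and -1.90 in the order given under TMM scaling, and -0.44, -0.42 and -0.70 without miR-10 in the base.

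The miRNA families were read in the same way. All 9 let-7 members were tested and all 9 were higher, and their sum was 40395 and 25872 RPM in WT and KO at 13 months, against 1473 and 1809 RPM at 2 months (log2 ratios of 4.78 and 3.84). All 3 members of the miR-29 family were higher, with sums of 2866 and 2192 RPM in WT and KO at 13 months, against 49.0 and 99.2 RPM at 2 months (log2 ratios of 5.87 and 4.47). The miR-17-92 cluster and its paralogues, which promote proliferation, had 3 of 12 members tested and all 3 higher, with sums of 3041 and 1329 RPM in WT and KO at 13 months, against 61.1 and 90.2 RPM at 2 months. Sums of these 3 lists and of the endothelial list stayed higher in both genotypes under TMM scaling, where the sums of 13 of the 18 lists were lower. A sum is carried by its most abundant members: the median of the tested let-7 members was -0.18 in WT and 0.43 in KO after TMM scaling. The miR-30 family had 7 of 7 tested members higher, with sums of 25086 and 22394 RPM in WT and KO at 13 months, against 2056 and 4611 RPM at 2 months, and the TMM-scaled log2 ratios of the sum were -1.07 in WT and -1.10 in KO. That sum is carried by miR-30a-5p, and the TMM-scaled median of the tested members had the opposite sign, 0.20 in WT and 0.31 in KO. The miR-181 family had 4 of 4 tested members higher, with sums of 12238 and 6546 RPM in WT and KO at 13 months, against 649 and 680 RPM at 2 months, and the TMM-scaled log2 ratios of the sum were -0.44 and -0.12. Of the 98 miRNAs tested, 87.8% were higher, a share that the level filter raises. A list with all members higher is close to that background.

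Lists of miRNAs for other cell types of the tissue gave the following sums. Smooth muscle and stroma, with 5 of 5 tested members higher, had 76872 and 73836 RPM in WT and KO at 13 months, against 10169 and 19102 RPM at 2 months. Endothelium, with 2 of 2 tested members higher, had 4007 and 4527 RPM in WT and KO at 13 months, against 96.85 and 277 RPM at 2 months (log2 ratios of 5.37 and 4.03). Epithelium, with 6 of 6 tested members higher, had 26438 and 28310 RPM in WT and KO at 13 months, against 3422 and 6712 RPM at 2 months (log2 ratios of 2.95 and 2.08). The epithelial sum was mostly miR-141-3p. In contrast, miR-205-5p, listed but not tested, was lower by name. It had 6.21 and 7.70 RPM in WT and KO at 13 months, against 53.4 and 67.4 RPM at 2 months. Most of its 13-month reads began 1 base before the usual start, as described below. The median log2 ratio of the tested members was 5.01 in WT and 3.71 in KO for endothelium, and 4.55 in WT and 3.38 in KO for epithelium, and this difference was not tested. Leukocyte miRNAs, with 1 of 3 tested members higher and 1 lower, had 1782 and 1046 RPM in WT and KO at 13 months, against 569 and 1015 RPM at 2 months (log2 ratios of 1.65 and 0.04). Within that list miR-142-5p, of blood cells, had 478 and 459 RPM in WT and KO at 13 months, against 4.93 and 32.9 RPM at 2 months, and miR-146a-5p, which restrains NF-kB signalling, had 1038 and 431 RPM in WT and KO at 13 months, against 123 and 220 RPM at 2 months. The lower member, miR-21a-5p, held most of the sum at 2 months. It had 90.0 and 75.7 RPM in WT and KO at 13 months, against 436 and 752 RPM at 2 months. Erythroid miRNAs had 511 and 300 RPM in WT and KO at 13 months, against 68.2 and 113 RPM at 2 months, and striated muscle miRNAs had 14.1 and 11.1 RPM, against 7.40 and 6.42 RPM. The germ-cell list had 1 tested member, miR-34c-5p, with 6602 and 518 RPM in WT and KO at 13 months, against 40.4 and 42.8 RPM at 2 months (log2 ratios of 7.35 and 3.60). Under TMM scaling the log2 ratios of these sums in WT and KO were 3.39 and -0.011 for germ cells, 0.70 and 0.65 for endothelium, -1.76 and -1.43 for smooth muscle and stroma, -1.73 and -1.31 for epithelium, -3.03 and -3.34 for leukocytes, -1.77 and -1.98 for erythroid cells and -3.75 and -2.59 for striated muscle. The part of changed cell composition in the miRNA differences was not tested.

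The 6 miRNAs that were lower by name split when reads were counted by an inner stretch of 15 nt, whatever their first base. miR-26a-5p had 89.5 and 71.0 RPM by name in WT and KO at 13 months, against 1042 and 1666 RPM at 2 months (log2 ratios of -3.54 and -4.55). By the inner stretch its log2 ratios were 4.003 in WT and 3.52 in KO, the opposite direction. miR-99b-5p had 150 and 111 RPM by name in WT and KO at 13 months, against 1228 and 2578 RPM at 2 months (log2 ratios of -3.03 and -4.54), and by the inner stretch its log2 ratios were 3.59 and 1.62. miR-182-5p, of the miR-183 cluster known from sensory organs, had 77.8 and 80.4 RPM by name in WT and KO at 13 months, against 1940 and 2021 RPM at 2 months (log2 ratios of -4.64 and -4.65), and by the inner stretch the log2 ratios were -1.997 and -1.99. miR-21a-5p, a miRNA raised in many injured tissues, had 90.0 and 75.7 RPM by name in WT and KO at 13 months, against 436 and 752 RPM at 2 months (log2 ratios of -2.28 and -3.31), and by the inner stretch the log2 ratios were -1.49 and -1.24. miR-182-5p and miR-21a-5p were therefore lower at 13 months under both ways of counting. They were the 2 miRNAs (1.8%) called lower by the inner stretch out of 111 tested. Of these 111, 100 (90.1%) were higher, under the same level filter. For miR-204-5p and miR-375-3p, named here after their values were seen, the inner stretch gave log2 ratios of 0.12 and 0.03 in WT and -0.29 and -0.42 in KO.

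**Figure D4:**
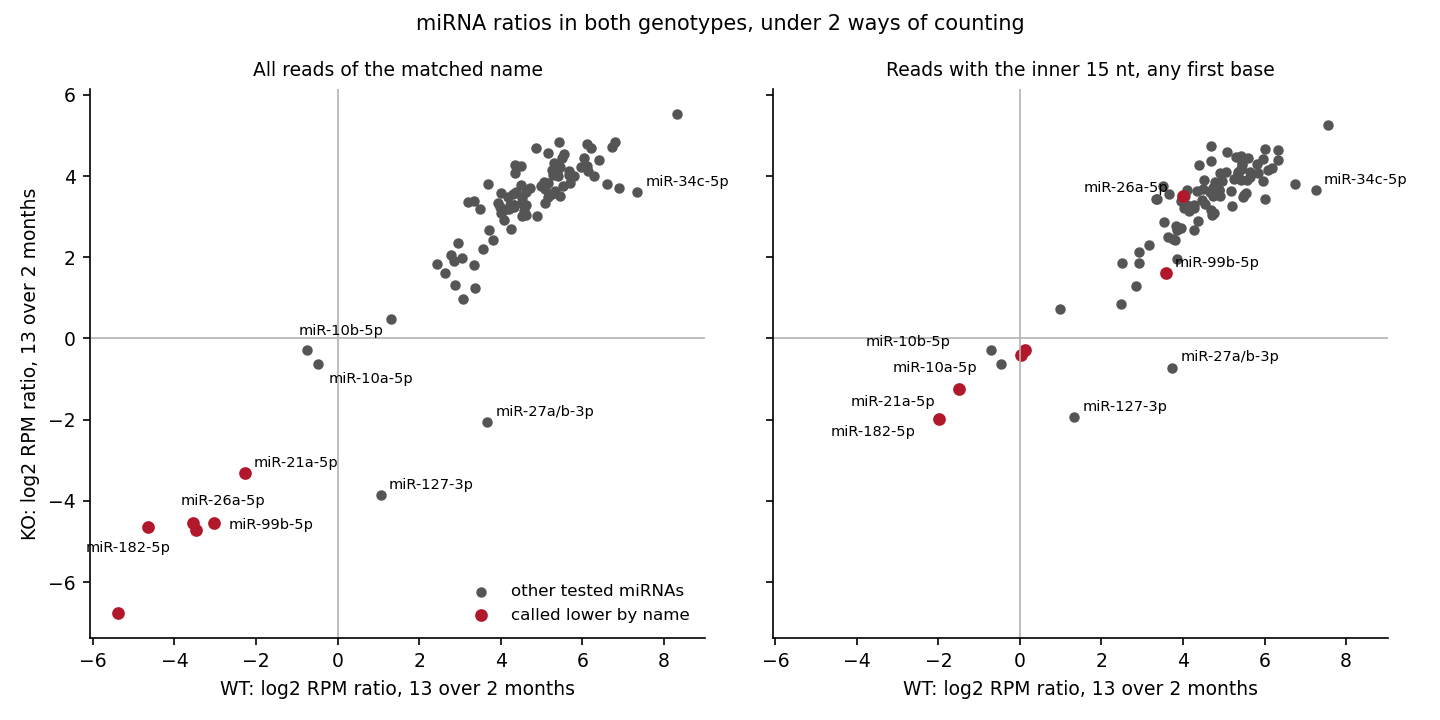
Log2 RPM ratios of 13 over 2 months in WT (x axis) and KO (y axis), 1 point per tested miRNA, counted by name (left) and by the inner 15 nt (right), with the 6 miRNAs called lower by name in red. miR-26a-5p and miR-99b-5p move from -3.54 and -3.03 in WT by name to 4.003 and 3.59 by the inner stretch, while miR-182-5p and miR-21a-5p stay below 0.

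The reads behind this difference began 1 base before the usual start. Of reads with a miRNA's inner stretch, 5.55% in WT and 4.80% in KO at 13 months began there, against 0.219% in WT and 0.247% in KO at 2 months, and without miR-10 the shares were 10.4% and 10.7% in WT and KO at 13 months, against 0.463% and 0.548% at 2 months. At 2 months most such reads were of miR-10, with only 719 of 7796 in WT and 2629 of 18263 in KO from other miRNAs, so the kind of base is given without miR-10. The added base did not match the entry in 55.9% and 60.5% of such reads in WT and KO at 13 months, against 0.695% and 0.609% at 2 months. In the other reads it matched the entry, and it is called added there too. It was T in 45.3% and 48.4% of such reads in WT and KO at 13 months, against 8.21% and 5.10% at 2 months, and C in 38.03% and 31.8% in WT and KO at 13 months, against 62.2% and 70.0% at 2 months. A was the added base at similar shares, in 10.1% and 12.1% in WT and KO at 13 months, against 9.04% and 8.44% at 2 months. More reads thus began 1 base before the usual start at 13 months. Over all such reads without miR-10, that base was more often a T and more often a mismatch to the entry. These shares lean on miR-26a-5p and miR-99b-5p. Of the 351402 and 531983 such reads in WT and KO at 13 months, miR-26a-5p held 92128 and 206214. miR-99b-5p held 104672 and 107110 of them. At 2 months each had at most 2 such reads in a library, and the kind of base was not compared apart from them.

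A few miRNAs carried the added base on most of their reads. Over 108 inner stretches the median share of reads with it was 2.36% and 2.49% in WT and KO at 13 months, against 0% and 0.00647% at 2 months, and for 7 of the 108 it was at least 50% in both 13-month libraries and for 0 of them at 2 months. miR-26a-5p had the added base on 92128 and 206214 reads in WT and KO at 13 months, against 1 and 0 reads at 2 months. Its usual sequence had 12 and 28 reads in WT and KO at 13 months, against 2227 and 8519 reads at 2 months. miR-99b-5p had the added base on 104672 and 107110 reads in WT and KO at 13 months, against 2 and 2 reads at 2 months. For both, the form that made up nearly all reads at 13 months was all but missing at 2 months. The share was 99.1% and 98.8% for miR-99b-5p, 96.0% and 98.6% for miR-26b-5p, 99.7% and 92.9% for miR-205-5p, 96.9% and 98.3% for miR-204-5p, 84.3% and 83.8% for miR-182-5p, and 63.6% and 50.2% for miR-21a-5p in WT and KO at 13 months. Of these, miR-26a-5p and miR-26b-5p share a seed. Abundant miRNAs such as miR-148a-3p kept it low, at 2.72% and 3.02% in WT and KO at 13 months, against 0% and 0.00890% at 2 months. The usual sequence of each of the 6 miRNAs lower by name had a line in all 4 files.

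**Figure D5:**
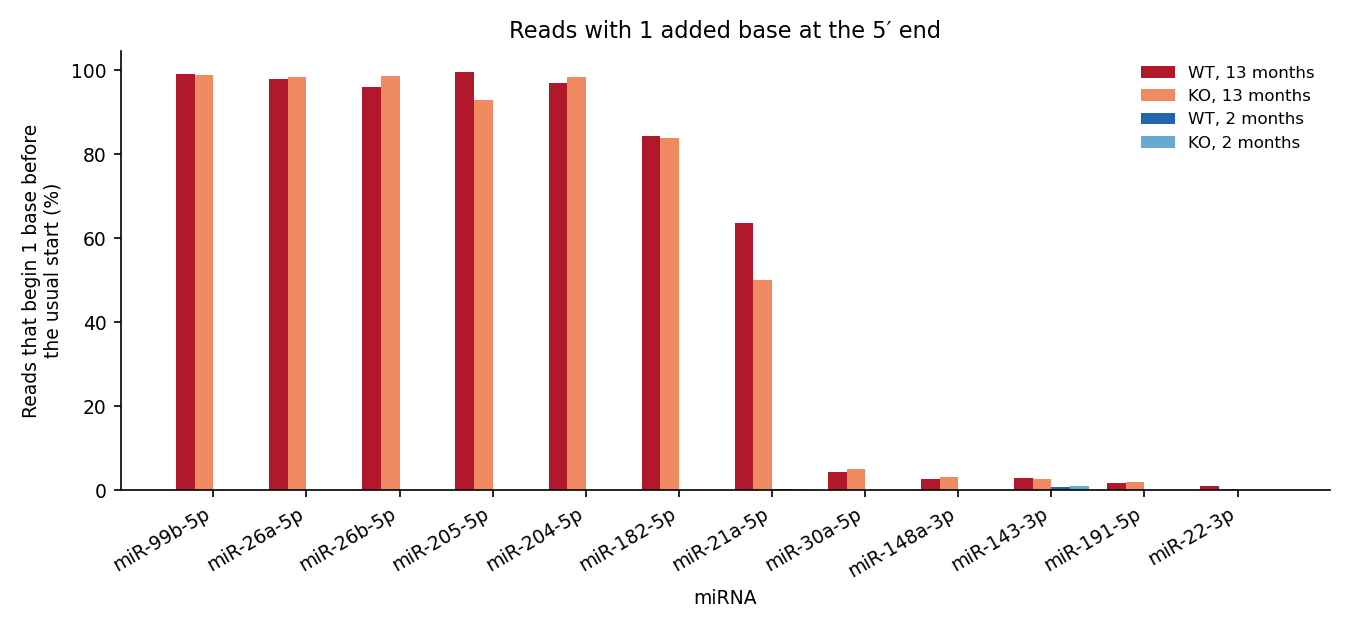
Share of reads (%) that begin 1 base before the usual start, for 12 miRNAs, with 1 bar per library. For the 7 miRNAs on the left the 13-month bars reach between 50.2% and 99.7% and the 2-month bars lie near 0; the 5 abundant miRNAs on the right stay at or below 5.10% in every library.

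A model across all miRNAs was fitted with age and genotype as terms, edgeR's quasi-likelihood test with TMM scaling and Benjamini-Hochberg adjustment. It has 1 residual degree of freedom, and its p-values measure how alike the age difference was in the 2 genotypes, not the spread between animals. Of 96 miRNAs tested, 2 (2.08%) were higher and 11 (11.5%) were lower at 13 months at an adjusted p under 0.05, by the scaled ratio. The 2 higher were miR-29a-3p (log2 fold change of 1.21) and miR-425-5p (1.79), each with an adjusted p of 0.0471 in edgeR's test and a higher value at 13 months in both genotypes. In DESeq2 the adjusted p was 0.0594 for miR-29a-3p, which did not pass there, and 0.0107 for miR-425-5p. The 11 lower included miR-26a-5p (log2 fold change of -8.08) and miR-99b-5p (-7.82, edgeR adjusted p = 0.00379). Counted by the inner stretch, miR-26a-5p had a log2 fold change of -0.27 with an edgeR adjusted p of 0.632 and miR-99b-5p one of -1.42 with an adjusted p of 0.0768. In contrast, miR-21a-5p and miR-182-5p stayed lower by the inner stretch. Their log2 fold changes were -5.39 (edgeR adjusted p = 0.00247) and -6.02 (edgeR adjusted p = 0.00209). They were among 12 lower of 107 tested in that fit, where 3 were higher. miR-204-5p (-4.11) and miR-375-3p (-4.22) were also lower there, but had -0.08 and -0.19 with library size only.

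The other 7 miRNAs lower by name in this model were miR-204-5p, miR-146b-5p, miR-146a-5p, miR-183-5p, miR-186-5p, miR-99a-5p and miR-3107-5p with miR-486-5p. The last is a red blood cell miRNA. For all except miR-204-5p the log2 fold change changed sign when only library size was used for scaling. miR-183-5p comes from the same cluster as miR-182-5p and had a TMM-scaled log2 fold change of -1.90, against 2.12 with library size only. miR-186-5p did not pass in DESeq2 (adjusted p = 0.0556). miR-10a-5p (log2 fold change of -4.59, edgeR adjusted p = 0.0706) and miR-10b-5p (-4.54, edgeR adjusted p = 0.0835) did not pass. With library size only, 80 of the 96 miRNAs (83.3%) were higher and 5 (5.21%) were lower. Under both scalings miR-29a-3p and miR-425-5p were among the higher, and miR-182-5p and miR-21a-5p among the lower by name. By the inner stretch with library size only, miR-182-5p and miR-21a-5p had log2 fold changes of -1.99 and -1.36 and no longer passed.

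The number of calls varied when a library was left out. These fits also dropped the genotype term and assumed that the arm with 1 library varied like the other. With every library and without that term, 4 miRNAs were higher and 17 were lower by edgeR's test. Without the WT library of 2 months, 0 miRNAs were higher and 8 were lower by edgeR's test, with 7 higher and 16 lower at an unadjusted p under 0.05. Without the KO library of 2 months, 1 was higher and 7 were lower. Without the WT library of 13 months, 14 were higher and 24 were lower, and without the KO library of 13 months, 23 were higher and 25 were lower.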

How the data were processed

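Per the labels' protocols, small RNA libraries were made from caput RNA with the TruSeq small RNA protocol. Fragments of 18 to 40 nt were cut from a gel and sequenced on a GAIIx or HiSeq instrument. Pooling of RNA is not stated for 2 months. The instrument of each library is not stated. Each deposited file lists unique sequences with their read counts and the entry matched with up to 2 mismatches, per the file headers. TopHat2, Bowtie 0.12.7 and mm9 are named in the submitters' processing notes without a role. At 2 months, 5531 and 5419 names in WT and KO had been turned into dates by a spreadsheet and were read back by month. Ranks without a line were not analysed here.

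From these counts, reads of 18 to 38 nt were summed by class, matched entry, miRNA name, inner stretch (15 nt from base 4 of the most frequent sequence) and tRNA 5′ end (15 nt). Levels of miRNAs are reads per 1000000 mature-named plus-strand reads. Ratios have exact conditional binomial intervals and shares Clopper-Pearson intervals, at 95%. A call needed a 2-fold ratio and an interval without 1 in both genotypes. A value of 0 was taken as at most 3 counts. edgeR 4.0.16 tested miRNAs with a mean of at least 100 RPM, and DESeq2 1.42.0 was the alternative (R 4.3.3). On simulated counts for the miRNA age test (202 features), 19 of 19 miRNAs changed 4-fold and 19 of 19 changed 16-fold were recovered, with 3 false calls. The simulation gave both ages the same mean composition apart from these changes. It therefore cannot show how the test does under the shift in miR-10 share seen here. Python 3.11.15, pandas 2.3.3, SciPy 1.17.1 and matplotlib 3.10.9 did the rest.

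Named miRNAs had at least 1000 RPM in a library and were the 10 with the largest and the 10 with the smallest shared ratio, the 5 most abundant, up to 4 per list and the 5 whose genotypes differed most. Named tRNAs were the 5 most read, and single sequences up to 3 per class by level and 3 by ratio. Samples were grouped by title. The members and lists were chosen with earlier results of these data known. Of 98 tested miRNAs, 84 had a RefSeq mature sequence, and 82 had the same start. Corpus, cauda and transcriptome files were not used here, and of the testis files only piRNA features were used.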

Additional observations from a re-analysis of the deposited data

Results flagged for a closer look

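miR-27a-3p and miR-27b-3p, counted together, went opposite ways in the genotypes: 8906 RPM in WT at 13 months against 701 RPM at 2 months (log2 ratio of 3.67), and 297.5 RPM in KO at 13 months against 1246 RPM at 2 months (log2 ratio of -2.07). By the inner stretch the log2 ratios were 3.74 in WT and -0.72 in KO. miR-127-3p, from the imprinted Dlk1-Dio3 cluster, had a log2 ratio of 1.06 in WT (221 RPM at 13 months against 106 RPM at 2 months) and of -3.86 in KO (14.35 RPM at 13 months against 208 RPM at 2 months). By the inner stretch its log2 ratios were 1.33 in WT and -1.93 in KO. Reads that began 1 base before the usual start were 73.6% of its KO and 16.8% of its WT reads at 13 months, and for miR-27a-3p and miR-27b-3p 63.5% in KO and 5.15% in WT. 5′ fragments of tRNA-Glu had a log2 ratio of 1.16 in WT and -0.26 in KO. In each file a sequence without a line could hold more reads than all those counted for tRNA-Glu. With 1 library in each group these differences between genotypes were not tested.

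SNORD58 reads over 38 nt, outside the lengths compared, were 0.554% of all reads in WT and 0.415% in KO at 2 months, against 0 reads at 13 months, where the files hold no read over 38 nt. A 40-nt form made up 19742 of them in WT and 29366 in KO.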

How the results depend on the processing

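No paired analysis was possible because each age and genotype had 1 library; genotype was a term of the model. Counting by the inner stretch, the base without miR-10 and the restriction to usual sequences listed in all files were chosen after seeing the data. All 8 classes other than miRNA were higher at 13 months in both genotypes under every alternative except reads of every length for snoRNA (log2 -0.065 in WT, -0.031 in KO), and the miRNA class turned to 1.31 in WT and 1.24 in KO by distinct sequences at equal depth. Shared miRNA calls, 86 higher and 6 lower, became 3 and 26 with TMM, 3 and 25 with median-of-ratios scaling, 190 higher from 10 RPM, 25 and 3 from 1000 RPM, 39 and 0 for starts 1 to 3 nt away only, 2 lower by the inner stretch and 13 lower without miR-10 in the base. The mean log2 ratio of miR-143-3p, miR-191-5p, miR-141-3p, miR-30a-5p and miR-200c-3p turned to -1.64, -1.62, -1.90, -1.51 and -0.18 with TMM and to -1.63, -1.61, -1.89, -1.50 and -0.16 with median-of-ratios scaling, and without miR-10 the first 4 turned to -0.44, -0.42, -0.70 and -0.32. With other starts only, miR-99b-5p, miR-26a-5p, miR-21a-5p and miR-375-3p turned to 8.22, 12.84, 6.36 and 4.98, and by the inner stretch miR-99b-5p and miR-26a-5p turned to 2.60 and 3.76.

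The age test, 2 higher and 11 lower, gave 80 and 5 with library size only, 10 and 21 with median-of-ratios scaling, 4 and 17 without genotype, 6 and 19 from a mean of 10 RPM, 5 and 19 in DESeq2, 93 and 0 by the inner stretch with library size only (where 94 were higher and 0 lower at an unadjusted p under 0.05), and 0 to 23 higher and 7 to 25 lower without each library in turn. With library size only by name, and then by the inner stretch, its log2 values turned to 2.02 and 1.66 for miR-146a-5p, 0.89 and 0.85 for miR-146b-5p, 2.12 and 2.39 for miR-183-5p, 2.89 and 3.11 for miR-186-5p, 2.10 and 2.06 for miR-3107-5p with miR-486-5p, and 2.57 and 3.33 for miR-99a-5p, and by the inner stretch alone to 3.76 for miR-26a-5p and 2.60 for miR-99b-5p. Of the 18 lists, 14 were higher and 1 lower, against 4 and 13 with TMM, and 5 and 11 by the TMM-scaled median of the tested members (chosen after seeing the data, over the 17 lists with a tested member). In KO, tRNA-Cys turned to -1.10 without mismatches, and tRNA-Glu to 0.79 with any start and 0.77 without mismatches. The KO piRNA share beginning with T, 18.0 percentage points lower at 13 months, was -14.9 without mismatches. Of 450 values of single miRNAs in all, 378 were counted as unchanged. For miRNAs called in the main setting, that means the same direction and a call. For uncalled miRNAs it means no call, or any change of sign. Of 143 values in the age test, 108 kept direction and side of the threshold. Apart from the scaling and counting that the settings themselves change, the cause was not tested. Depth limits low values: 3 reads are 0.504 and 0.263 RPM of miRNA reads in WT and KO at 13 months, against 0.925 and 0.459 at 2 months.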

Other observations

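Other miRNA lists not described above were mixed. The miR-125, miR-99 and miR-100 list had 4 of 5 tested members higher and miR-99b-5p lower by name, with summed log2 ratios of 2.93 in WT and 1.75 in KO. The miR-23, miR-27 and miR-24 list, with 3 of 4 tested members higher, summed to 10352 and 1254 RPM in WT and KO at 13 months, against 787 and 1386 RPM at 2 months (log2 ratios of 3.72 and -0.14), so that its KO sum did not follow its WT sum. The miR-15 and miR-16 list had 3 of 3 tested members higher, with summed log2 ratios of 4.31 in WT and 2.76 in KO. The inflammation and stress list had 2 of 5 tested members higher and miR-21a-5p lower, with sums of 23482 and 16795 RPM in WT and KO at 13 months, against 1585 and 2505 RPM at 2 months. Most of the 13-month sum was miR-22-3p, with 21281 and 15692 RPM in WT and KO, against 861 and 1276 RPM at 2 months. The median log2 ratio of the tested members was 3.08 in WT and 0.97 in KO. In this list miR-146b-5p had 391 and 334 RPM in WT and KO at 13 months, against 159 and 241 RPM at 2 months, and was not called. The Dlk1-Dio3 cluster, with 33 miRNAs found and 1 tested, had summed log2 ratios of 2.37 in WT and 0.00 in KO. miR-871-3p, an X-linked testis miRNA, had 8530 RPM in WT and 60.6 RPM in KO at 13 months, against 12.65 and 11.0 RPM at 2 months. With TMM scaling the sums of all 5 lists were lower at 13 months in both genotypes.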
